A study of Mus musculus with 18 samples.

Results

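Secreted factors of muscle, 10 genes in all, were followed across all 6 treatment groups of a mouse myotube experiment: Gdf15, Fgf21, Il6, Lif, Il15, Mstn, Fst, Fndc5, Metrnl and Bdnf. The 10 genes were taken by symbol from a count table of 55414 genes, and all 10 were among the 21772 genes that reached 10 counts in total and were tested. C2C12, an established mouse myoblast line, was transfected at confluence with a pool of siRNAs and differentiated into myotubes for 6 days. The siRNA pools were a non-targeting control (siNtc), a pool against the atypical MAP kinase ERK3 (siErk3, gene Mapk6) and a pool against its partner kinase MK5 (siMk5, gene Mapkapk5). Each siRNA group received either BSA alone or 0.5 mM palmitic acid bound to BSA (PA) for 16 h in medium without serum, with 3 poly(A) RNA-seq libraries in each of the 6 groups. No sample was a mouse, all came from 1 cell line, and the labels do not say that replicates were separate cultures, so p-values measure the spread between these libraries, which may be technical.

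Myokines are proteins that muscle releases and that act on the muscle itself or on distant organs. GDF15 and FGF21 are hormones that stressed cells release, and their genes are known targets of the integrated stress response, in which ATF4 and its partners raise transcription. IL-6 and LIF signal through the shared receptor chain gp130, myostatin restrains muscle growth through activin receptors, and follistatin binds and blocks myostatin and activins. Palmitic acid is a saturated fatty acid widely used to load cultured muscle cells with lipid.

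Library totals ran from 13041979 to 28496727 counts. The 10 myotube markers were all detected and summed to between 12200 and 16600 CPM (counts scaled to a common library total, with TMM to correct for library composition) in a library. Markers of other cells were low but not all at 0. Alb, Ttr, Serpina1a, Plin1, Cidec and Adgre1 had no count in any of the 18 libraries. The macrophage list summed to at most 2.52 CPM, the glial and neuron list to 2.47 CPM and the endothelial list to 1.39 CPM. No gene of the glial and neuron list or the endothelial list was at 0 throughout. Gdf15 and Il15 in BSA, with means of 1.84 and 2.01 CPM, lay at levels similar to these sums. Il6 in BSA, with a mean of 0.935 CPM, lay below these highest sums. Markers of myoblasts and cycling cells were present and lower with PA, at 818 to 889 CPM in the BSA libraries and 336 to 445 CPM in the PA libraries. Mapk6 fell with siErk3, from 132 ± 3.18 to 57.4 ± 2.64 CPM (SD, n = 3) in BSA and from 232 ± 14.7 to 120 ± 11.4 CPM in PA, by edgeR's quasi-likelihood test (FDR = 1.77e-14 and 1.21e-12). Mapkapk5 was lower with siMk5, 1.63 ± 0.422 against 2.46 ± 0.126 CPM in BSA and 2.31 ± 0.131 against 3.24 ± 0.702 CPM in PA, without overlap of the groups, yet neither difference passed (edgeR FDR = 0.469 in both media). The 18S ribosomal RNA Rn18s-rs5 took 1.5% to 12.87% of a library's counts. In BSA its share differed by siRNA group, 2.56% to 7.17% in siNtc, 1.5% to 2.96% in siErk3 and 8.39% to 12.87% in siMk5. In PA the groups overlapped, at 5.32% to 6.43%, 3.74% to 6.77% and 1.71% to 6.69% in that order.

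The 250 bases before the start of Gdf15, Fgf21 and Il6 are shown because these 3 members rose most with PA. They were taken from RefSeq (GRCm38.p6) and matched exactly once on their chromosome in GRCm39, and are written 5′ to 3′ on the gene's strand. Capitals mark the letters found by a search of both strands for the C/EBP-ATF response element core TGATGNAA, the AP-1 site TGANTCA and the NF-κB consensus.
Gdf15, chr8:71085107-71085356, minus strand: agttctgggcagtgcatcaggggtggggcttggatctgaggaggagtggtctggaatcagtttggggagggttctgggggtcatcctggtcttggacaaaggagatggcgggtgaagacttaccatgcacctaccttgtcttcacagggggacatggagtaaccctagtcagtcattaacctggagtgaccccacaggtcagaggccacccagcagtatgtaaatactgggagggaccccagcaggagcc
Fgf21, chr7:45264915-45265164, minus strand: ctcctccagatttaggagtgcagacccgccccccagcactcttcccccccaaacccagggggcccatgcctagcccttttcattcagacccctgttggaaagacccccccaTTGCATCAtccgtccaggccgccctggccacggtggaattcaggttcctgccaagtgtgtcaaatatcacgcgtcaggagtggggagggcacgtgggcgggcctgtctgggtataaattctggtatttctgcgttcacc
Il6, chr5:30217862-30218111, plus strand: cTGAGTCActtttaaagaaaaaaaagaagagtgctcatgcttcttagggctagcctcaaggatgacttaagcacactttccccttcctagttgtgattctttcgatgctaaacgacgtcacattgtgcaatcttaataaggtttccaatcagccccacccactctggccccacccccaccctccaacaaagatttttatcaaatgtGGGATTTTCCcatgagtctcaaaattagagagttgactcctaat

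Fgf21 held TGATGNAA on the reverse strand at position -139 from the start, and this core occurs in 3.45% of all 32851 windows of the same length. Il6 held an AP-1 site at -249 and an NF-κB site at -44, letters found in 6.75% and 5.0% of windows. Gdf15 held none of these letters in this window, which says nothing of factors bound elsewhere. Among the 8 members with a window, TGATGNAA was found in 1, the AP-1 site in 4 (Il6, Lif, Mstn and a window of Bdnf) and the NF-κB site in 2 (Il6 and another window of Bdnf). These are counts of genes over 15 windows, since a gene can have several starts, while the shares above are per window. Of the 18 stress regulators described below, with 20 windows, 4 held TGATGNAA (Atf3, Asns, Chac1 and Nupr1), 2 the AP-1 site (Ddit3 and Eif2ak3) and 1 the NF-κB site (Eif2ak4).

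A gene was called where the edgeR false discovery rate (FDR, adjusted over all 21772 genes) was below 0.05 and the fold change above 1.3. With PA, Gdf15, Il6, Fgf21 and Metrnl were called higher in every siRNA group, and Fst and Fndc5 were called lower. Bdnf was also higher in every siRNA group, but passed the fold limit in siNtc alone. In siNtc, 7 of 10 members were called, 5 higher and 2 lower, beside 30.6% of all genes (15.5% higher, 15.1% lower). In siErk3 it was 6 members, 4 higher and 2 lower, beside 32.1% (15.8% higher, 16.3% lower), and in siMk5 the same 4 and 2 beside 29.7% (15.1% higher, 14.6% lower). Averaged over the 3 siRNA groups, 6 members were called beside 37.3% of all genes (17.9% higher, 19.4% lower), and the median log2 fold change of the 9 members other than Mstn was 0.31 beside -0.02 over all genes. More cells of a type and more RNA per cell cannot be told apart in these bulk libraries.

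**Figure D1:**
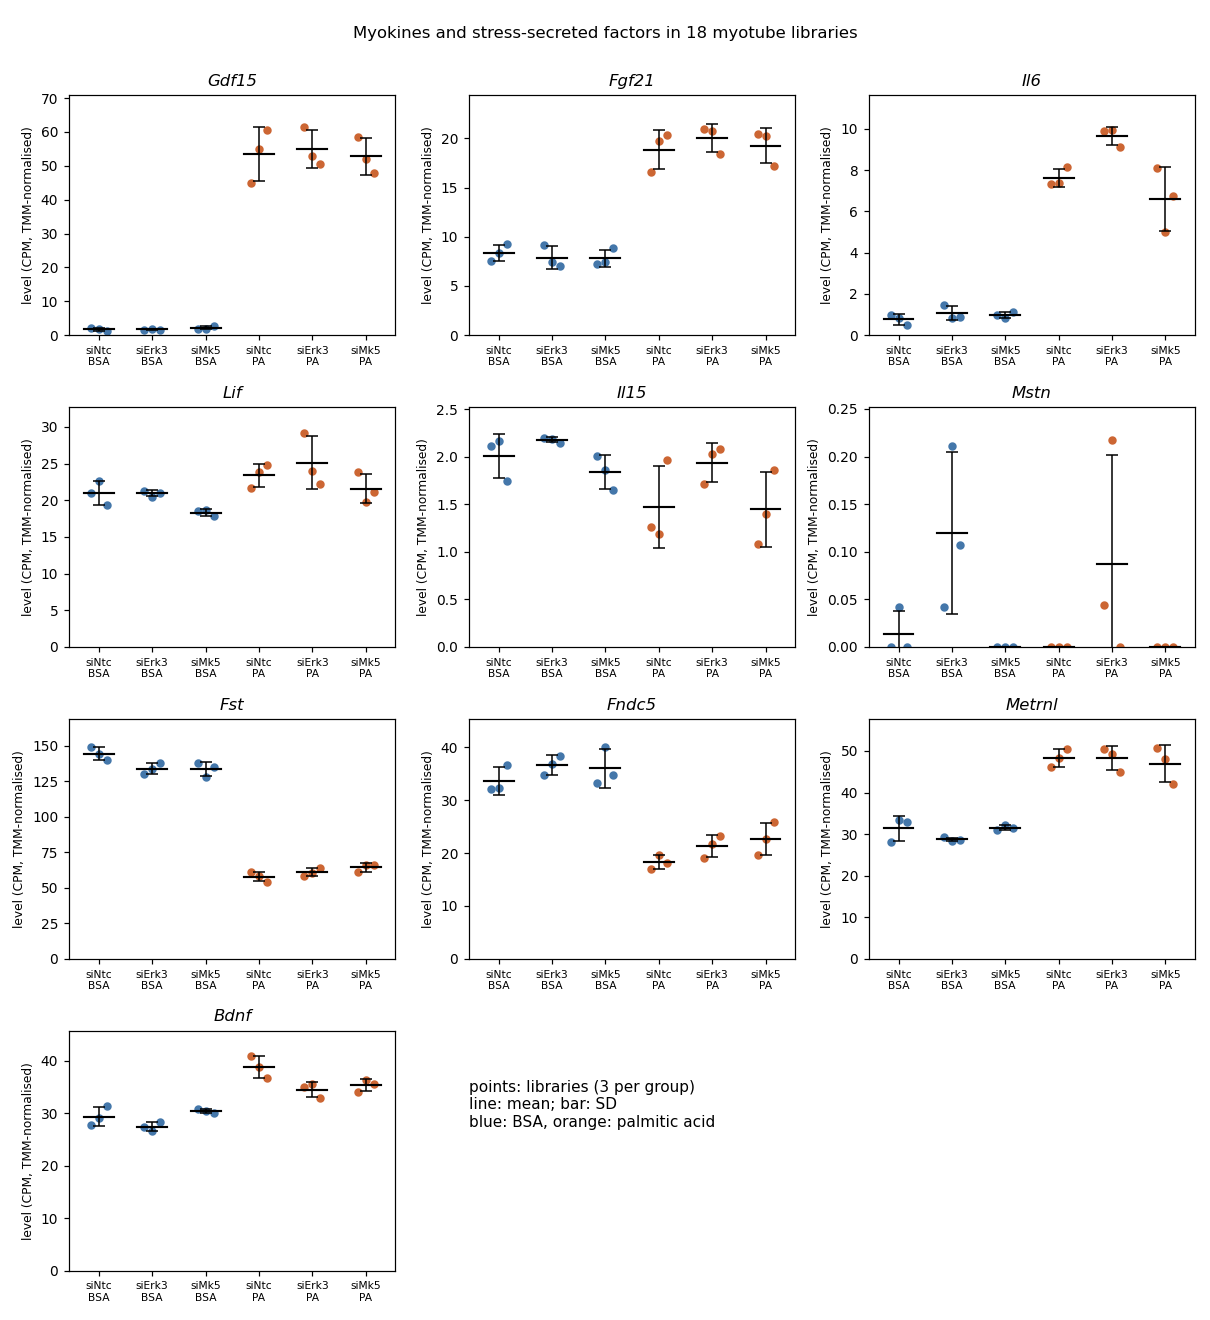
Level of each member (y axis, CPM after TMM scaling, linear from 0) in the 18 libraries by group, with a point per library, a line at the mean and a bar for the SD (n = 3). Gdf15 libraries sit between 1.32 and 2.63 CPM in BSA and between 45.0 and 61.4 CPM in PA, while Mstn stays at or below 0.217 CPM throughout.

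Gdf15, the stress hormone that lowers appetite through the hindbrain receptor GFRAL, showed the largest change of the members. It lies on chromosome 8 of GRCm39, from 71082043 to 71085106. In BSA it was at 2.04, 1.75 and 1.32 CPM in the siNtc libraries, 1.56, 1.86 and 1.65 in siErk3, and 1.79, 1.96 and 2.63 in siMk5. In PA it was at 45.0, 54.9 and 60.7 CPM in siNtc, 61.4, 52.9 and 50.6 in siErk3, and 58.6, 52.0 and 47.8 in siMk5. All 9 PA libraries were above all 9 BSA libraries. The log2 fold change was 5.00 ± 0.15 (SE) in siNtc, 5.02 ± 0.14 in siErk3 and 4.64 ± 0.14 in siMk5, folds of 31.9, 32.5 and 25 (edgeR FDR = 1.23e-22, 1.82e-23 and 2.21e-22). Only 0.349% of tested genes rose at least as far, on the log2 scale, in the average over siRNA groups.

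Fgf21, a hormone of fasting and mitochondrial stress (chromosome 7, 45263310 to 45264914), rose from a higher base. It was at 7.52, 8.33 and 9.22 CPM in siNtc BSA libraries, 9.21, 7.46 and 6.98 in siErk3, and 7.24, 7.40 and 8.82 in siMk5. In PA the siNtc libraries were at 16.6, 19.7 and 20.3 CPM, siErk3 at 21, 20.7 and 18.4, and siMk5 at 20.4, 20.2 and 17.2. The lowest PA library stood well clear of the highest BSA library. The folds were 2.23 in siNtc, 2.56 in siErk3 and 2.48 in siMk5 (log2 1.16 ± 0.11, 1.35 ± 0.10 and 1.31 ± 0.11 SE; edgeR FDR = 1.17e-10, 1.1e-12 and 8.82e-12).

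Il6 encodes the cytokine that contracting muscle releases (chromosome 5, 30218112 to 30224979). Its BSA level was low, 0.983, 0.833 and 0.473 CPM in siNtc, 1.44, 0.843 and 0.894 in siErk3, and 0.959, 0.855 and 1.14 in siMk5, on 10 to 34 counts a library. In PA it was at 7.33, 7.39 and 8.14 CPM in siNtc, 9.90, 9.92 and 9.13 in siErk3, and 8.09, 4.98 and 6.76 in siMk5. Every PA library exceeded every BSA library, and the 3 siErk3 libraries were the highest of the PA libraries. The log2 fold change with PA was 3.35 ± 0.21 (SE) in siNtc, 3.20 ± 0.18 in siErk3 and 2.75 ± 0.20 in siMk5 (edgeR FDR = 2.82e-14, 9.67e-16 and 8.59e-13).

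Metrnl, the meteorin-like factor that exercised muscle and fat secrete (chromosome 11, 121592370 to 121607132), rose less. Its libraries were at 28, 33.3 and 32.8 CPM in siNtc BSA, 29.2, 28.3 and 28.7 in siErk3 BSA, and 31.0, 32.1 and 31.5 in siMk5 BSA. With PA they were at 46.1, 48.2 and 50.5 CPM in siNtc, 50.5, 49.3 and 45.0 in siErk3, and 50.7, 48.0 and 42.0 in siMk5. The media did not overlap, and the folds were 1.53, 1.68 and 1.49 (edgeR FDR = 5.49e-09, 4.07e-11 and 1.78e-08).

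Fst encodes follistatin, the secreted inhibitor of myostatin and activins (chromosome 13, 114588826 to 114595487), and had the highest CPM of the members in BSA. It was at 149, 144 and 140 CPM in siNtc BSA, 130, 134 and 138 in siErk3 BSA, and 138, 128 and 135 in siMk5 BSA. In PA it was at 61.1, 58.3 and 54.4 CPM in siNtc, 58.5, 60.4 and 63.9 in siErk3, and 61.0, 66.2 and 66.0 in siMk5. The fall separated all libraries of the 2 media. It was 2.49-fold in siNtc, 2.20-fold in siErk3 and 2.08-fold in siMk5 (log2 -1.31, -1.14 and -1.05, each ± 0.05 SE; edgeR FDR = 2.1e-19, 4.19e-18 and 4.84e-17).

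Fndc5, whose product is cleaved to irisin (chromosome 4, 129030792 to 129038386), fell too. BSA libraries were at 32.0, 32.3 and 36.7 CPM in siNtc, 34.7, 36.9 and 38.4 in siErk3, and 33.2, 40.1 and 34.7 in siMk5. PA libraries were at 17, 19.7 and 18.2 CPM in siNtc, 19.1, 21.7 and 23.2 in siErk3, and 19.7, 22.6 and 25.8 in siMk5. No PA library reached a BSA library. The falls were 1.85-fold, 1.72-fold and 1.59-fold (edgeR FDR = 9.15e-10, 2.92e-09 and 1.13e-07).

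Bdnf, a neurotrophin that muscle also makes (chromosome 2, 109505045 to 109557352), lay at the fold limit. It was at 27.7, 29.1 and 31.4 CPM in siNtc BSA, 27.5, 26.7 and 28.3 in siErk3 BSA, and 30.9, 30.5 and 30.1 in siMk5 BSA. With PA it was at 40.9, 38.9 and 36.7 CPM in siNtc, 35.0, 35.7 and 32.9 in siErk3, and 34.1, 36.3 and 35.7 in siMk5. The 9 PA libraries were above the 9 BSA libraries. The fold was 1.32 in siNtc, which was called, and 1.26 and 1.16 in siErk3 and siMk5, which were not (edgeR FDR = 1.5e-06, 2e-05 and 0.00385). The siNtc call was lost, with log2 values of 0.34 to 0.38, when siNtc BSA replicate 1 or 2, siNtc PA replicate 1 or 2, siErk3 PA replicate 1 or 3, or siMk5 PA replicate 1 was left out.

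Lif, the leukaemia inhibitory factor that supports myoblast proliferation (chromosome 11, 4207557 to 4222514), stayed below the fold limit. Its group means ran from 18.4 to 21 CPM in BSA and from 21.6 to 25.1 CPM in PA, and the media overlapped. The averaged log2 fold change was 0.22 ± 0.05 (SE, edgeR FDR = 0.00029). Il15, an interleukin of muscle that acts on lymphocytes (chromosome 8, 83058261 to 83129851), was at 1.65 to 2.20 CPM in BSA and 1.08 to 2.08 CPM in PA. Its averaged log2 fold change was -0.33 ± 0.12 (SE, edgeR FDR = 0.0182), again under the fold limit. It was called in the average without siNtc BSA replicate 3 (-0.38), siNtc PA replicate 3 (-0.43) or siMk5 PA replicate 3 (-0.40), and in siNtc alone without siNtc PA replicate 3 (-0.73).

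Mstn, the gene of myostatin (chromosome 1, 53100799 to 53107238), was close to undetected, with 17 counts over all 18 libraries. The siErk3 libraries held 9 of these counts in BSA and 7 in PA, siNtc held 1 in BSA, and the other groups held 0, so no fold is given. A count of 0 allows up to 3 counts in a library.

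For single members, the exact permutation test over libraries, two-sided, cannot go below 0.1 with 3 against 3 libraries. Permuting within the siRNA groups, 9 against 9, the exact permutation p for PA was 0.00025, the smallest it can give, for Gdf15, Fgf21, Il6, Metrnl, Fst, Fndc5 and Bdnf. It was 0.00075 for Lif and 0.011 for Il15.

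**Figure D2:**
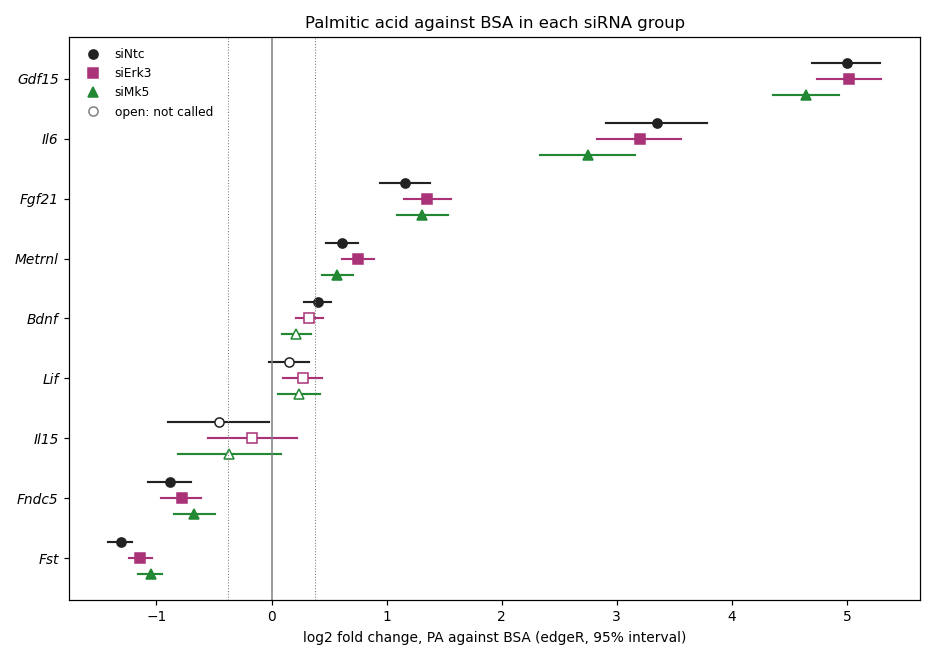
Log2 fold change of PA against BSA (x axis) for 9 members (y axis) in siNtc, siErk3 and siMk5, with the 95% interval as a line, filled symbols for called genes and dotted lines at the fold limit of 1.3. Gdf15 lies near 5 in each siRNA group and Fst between -1.31 and -1.05, and the intervals of the siRNA groups overlap for every member except Fst, where siNtc (-1.42 to -1.21) lies below siMk5 (-1.16 to -0.95).

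Levels of different genes were compared per kilobase of exon. In BSA, Fst was highest at 29.9 ± 1.42 CPM per kb (SD, n = 9), followed by Metrnl at 19.2 ± 1.27, Fndc5 at 12.8 ± 1.00 and Fgf21 at 8.43 ± 0.930. Bdnf and Lif followed at 4.69 ± 0.270 and 4.62 ± 0.364, and did not differ beyond their spread. Gdf15 (0.993 ± 0.198) and Il15 (0.889 ± 0.0912) were also within their spread, above Il6 at 0.385 ± 0.106. In PA the order changed: Metrnl (30.1 ± 1.86) and Gdf15 (29.0 ± 3.06) led with overlapping ranges, then Fgf21 at 20.4 ± 1.69 and Fst at 13.3 ± 0.840. Fndc5 (7.52 ± 1.00), Bdnf (5.83 ± 0.392), Lif (5.38 ± 0.620), Il6 (3.28 ± 0.651) and Il15 (0.716 ± 0.173) followed, and the ranges of Fndc5 and Bdnf overlapped, as did those of Bdnf and Lif. By the order of the means Gdf15 went from place 7 to place 2, but its range overlapped that of Il15 in BSA and that of Metrnl in PA.

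With silencing, none of the 10 members was called in siErk3 against siNtc, in BSA (beside 0.785% of all genes) or in PA (0.556%), nor in siMk5 against siNtc, in BSA (0.0643%) or in PA (0.547%). DESeq2 also called 0 in each of the 4 comparisons. At an unadjusted edgeR p below 0.05 there were 1, 4, 2 and 3 members in that order, with Mstn among the 4. The shares of all genes above are for calls, a stricter limit, and are no measure for these counts. Fndc5 with siMk5 in PA had a log2 difference of 0.31 ± 0.09 (SE, edgeR FDR = 0.196) with no overlap of groups, and was called (0.41, edgeR FDR = 0.0268) without siMk5 PA replicate 1. For Gdf15 in PA the 95% interval of the log2 difference was -0.13 to 0.22 with siErk3 and -0.19 to 0.16 with siMk5. For Fgf21 in PA it was -0.10 to 0.28 and -0.16 to 0.23. In BSA, where Gdf15 and Il6 had few counts, the intervals were wider, reaching 0.86 for Gdf15 with siMk5 and 1.12 for Il6 with siErk3.

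**Figure D3:**
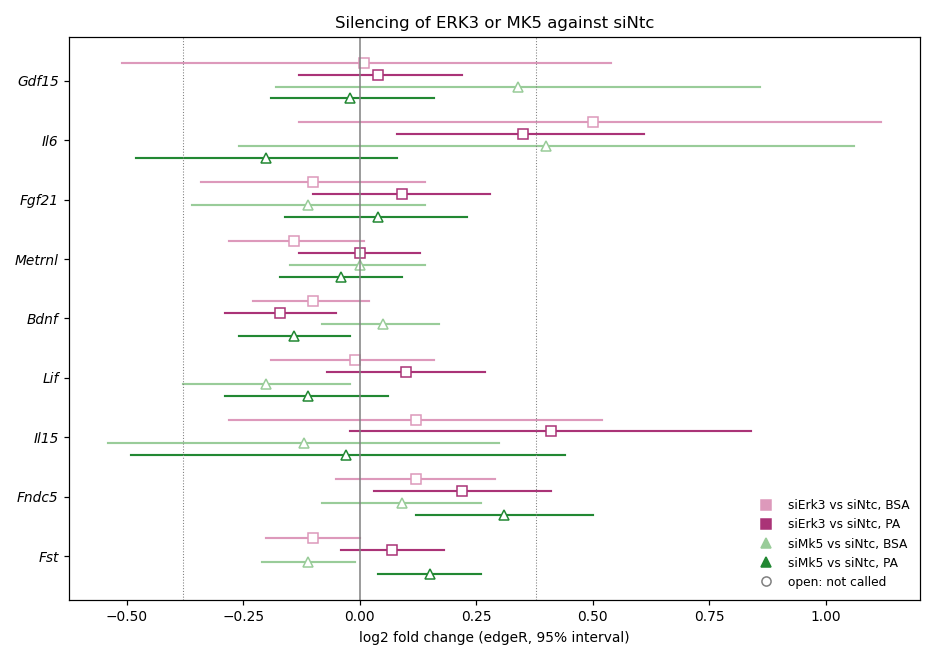
Log2 difference of siErk3 or siMk5 against siNtc (x axis) for 9 members (y axis), in BSA (pale) and PA (dark), with the 95% interval as a line and dotted lines at the fold limit of 1.3. All symbols are open because no difference was called, and the widest intervals are those of Il6 and Gdf15 in BSA.

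Between the silenced groups, 1 member was called. Il6 was higher in siErk3 than in siMk5 in PA, where 1.03% of all genes were called, by 0.55 ± 0.13 on the log2 scale (SE, 1.46-fold, edgeR FDR = 0.022). The 3 siErk3 libraries (9.13 to 9.92 CPM) were above the 3 siMk5 libraries (4.98 to 8.09 CPM). Against siNtc in PA, the log2 difference was 0.35 ± 0.13 with siErk3 (edgeR FDR = 0.373) and -0.20 ± 0.14 with siMk5 (edgeR FDR = 0.89). The call was lost without siErk3 PA replicate 2 (0.52, edgeR FDR = 0.131), siMk5 PA replicate 2 (0.38, FDR = 0.289) or siMk5 PA replicate 3 (0.56, FDR = 0.075), and in the fit of these groups alone (0.55, FDR = 0.116). In BSA no member was called between siErk3 and siMk5 by edgeR or DESeq2 (0 by each), beside 0.588% of all genes called. At an unadjusted edgeR p below 0.05, a looser limit than that of this share, there were 3 members, or 2 when Mstn is left out.

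The change of the PA effect with silencing was tested directly as an interaction. No member was called in siErk3 minus siNtc (0.0367% of all genes), siMk5 minus siNtc (0.211%) or siErk3 minus siMk5 (0.0735%), by edgeR or by DESeq2. At an unadjusted edgeR p below 0.05, a looser limit than that of the shares above, there were 1, 2 and 0 members. The lowest FDR belonged to Fst, whose fall with PA was smaller in siMk5 than in siNtc by 0.26 ± 0.07 on the log2 scale (SE, edgeR FDR = 0.183). For this difference the DESeq2 FDR was 0.0631. Over the alternative settings in edgeR and DESeq2 the FDR ran from 0.0462 to 0.212, at log2 values of 0.26 to 0.28, under the fold limit.

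Of 20 genes for receptors of the members 17 were tested, and in the average over siRNA groups 3 were called higher and 4 lower with PA (median log2 -0.03). This was near the background of that comparison, in which 37.3% of all genes were called, 17.9% higher and 19.4% lower, with a median of -0.02. Lifr, which binds LIF together with gp130, fell from 227 ± 4.19 to 99.1 ± 12.9 CPM in siNtc (SD, n = 3), and by 1.3 ± 0.04 on the log2 scale on average (edgeR FDR = 1.93e-22). Fgfr1, the main receptor for FGF21 in the presence of its coreceptor, rose by 0.48 ± 0.02 (edgeR FDR = 2.46e-17), while the coreceptor gene Klb had too few counts to be tested. Itgb5 and Itgav, subunits of an integrin that binds irisin, were both lower (log2 -0.74 ± 0.04 and -0.44 ± 0.02; edgeR FDR = 8.76e-18 and 3.9e-17). Il6st, the gp130 chain, was 0.35 ± 0.02 higher on the log2 scale and under the fold limit. Gfral, the GDF15 receptor, had 1 count over the 9 BSA libraries and 15 to 36 counts in each PA library, 225 in all, a ratio of 224 with a 95% exact interval of 39.8 to 8890 that covers counting error only. Its level in PA was 0.998 ± 0.343 CPM in siNtc. Ret, on the same receptor list, was lower in PA than in BSA, at 1.68 ± 0.237 against 2.77 ± 0.369 CPM in siNtc. In siErk3 it was at 1.60 ± 0.509 against 2.90 ± 0.516 CPM, and in siMk5 at 1.59 ± 0.0916 against 2.79 ± 0.955 CPM.

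Of 16 genes that cleave, bind or inhibit the members, 15 were tested, and 1 was called higher and 6 lower with PA (median log2 -0.19), beside 17.9% and 19.4% of all genes. Fstl1, a follistatin-like secreted protein, fell by 1.48 ± 0.05 on the log2 scale, and Bmp1, a protease that frees myostatin from its propeptide, by 0.81 ± 0.03 (edgeR FDR = 1.55e-22 and 5.61e-20). Dcn, which encodes the myostatin-binding proteoglycan decorin, fell by 0.85 ± 0.05 (edgeR FDR = 4.37e-15). Ltbp3, which binds latent TGF-β ligands, fell by 0.58 ± 0.04 (edgeR FDR = 4.9e-15). Among the 18 downstream genes, 5 were called higher and 5 lower (median 0.14), beside 37.3% of all genes called and a median of -0.02. Smad3, which carries activin and myostatin signals, fell by 1.05 ± 0.03, and the inhibitory Smad7 was higher by 0.94 ± 0.05 (edgeR FDR = 4.8e-23 and 1.59e-16). Smad6, another inhibitory SMAD, fell by 1.21 ± 0.07, and Socs2, a feedback inhibitor of cytokine signalling, rose by 0.44 ± 0.03 (edgeR FDR = 6.06e-16 and 1.21e-14).

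The stress regulators rose almost as a group. Of 17 tested, 14 were called higher and 1 lower in the average, beside 17.9% and 19.4% of all genes, with a median log2 fold change of 1.60. Trib3, a pseudokinase induced by ATF4, rose by 5.00 ± 0.05, Ddit3, which encodes CHOP, by 4.23 ± 0.04, and Chac1, which degrades glutathione, by 3.78 ± 0.05 on the log2 scale (edgeR FDR = 5.94e-36, 7.94e-35 and 1.33e-32). Ppp1r15a, the phosphatase subunit that restores translation, rose by 3.4 ± 0.05 (edgeR FDR = 1.35e-31), and Atf4 itself by 1.60 ± 0.03 (edgeR FDR = 1.73e-28). Ppargc1a, the coactivator that raises Fndc5 in exercised muscle, was lower by edgeR (-0.53 ± 0.19, FDR = 0.021) and not called by DESeq2 (FDR = 0.0527), nor by edgeR without siNtc BSA replicate 2 (-0.44), siErk3 BSA replicate 3 (-0.46) or siMk5 PA replicate 2 (-0.44). None of the 17 was called in siErk3 against siNtc, in BSA (beside 0.785% of all genes) or in PA (0.556%). None was called in siMk5 against siNtc either, in BSA (0.0643%) or in PA (0.547%). DESeq2 called none in these comparisons. At an unadjusted edgeR p below 0.05 there were 2 and 0 in siErk3 (BSA and PA) and 0 and 0 in siMk5. No share of all genes is given for that limit.

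**Figure D4:**
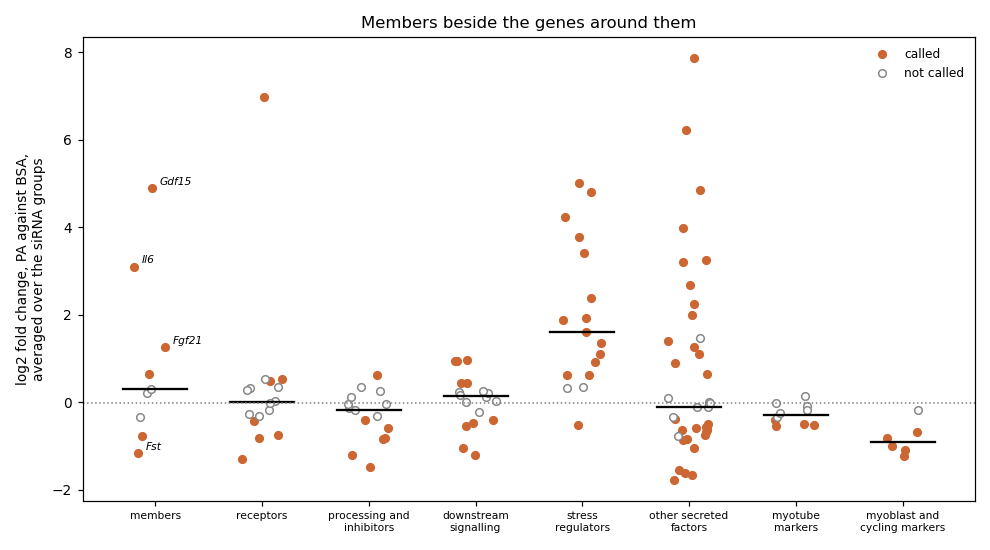
Log2 fold change of PA against BSA averaged over the siRNA groups (y axis) for the genes of 8 lists (x axis), with filled points for called genes, a line at each list's median and a dotted line at the median of all genes (-0.02). The stress regulators have the highest median, 1.60, and Gdf15 at 4.89 lies just below Trib3 at 5.00.

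Of 42 other secreted factors 38 were tested, and 14 were called higher and 16 lower with PA (median log2 -0.11), beside 17.9% and 19.4% of all genes. Angptl4, an inhibitor of lipoprotein lipase and a target of fatty acid receptors, rose by 3.97 ± 0.03, and Vegfa, the angiogenic factor, by 1.99 ± 0.03 (edgeR FDR = 2.67e-37 and 1.87e-29). Ccl5, a chemokine, rose by 6.22 ± 0.12 and Nampt by 1.39 ± 0.03 (edgeR FDR = 3.91e-28 and 2.08e-26). With silencing in BSA, 0 of the 38 were called in siErk3 against siNtc (0.785% of all genes). It was also 0 in siMk5 against siNtc (0.0643%) and in siErk3 against siMk5 (0.588%). In PA, siErk3 against siNtc gave 3 of 38, Ccl5 higher and Thbs1 and Cxcl12 lower, beside 0.556% of all genes. For siMk5 against siNtc it was 2, Ccl5 and Ccl2 lower, beside 0.547%. Between siErk3 and siMk5 it was 2, Ccl5 and Ccl2 higher in siErk3, beside 1.03%. Of these genes DESeq2 called Ccl5 alone in each comparison in PA. Ccl5 was at 21.2 ± 1.68 CPM in siNtc, 31.1 ± 2.49 in siErk3 and 15.2 ± 3.10 in siMk5 (SD, n = 3), a log2 difference from siNtc of 0.56 ± 0.09 and -0.47 ± 0.10 (edgeR FDR = 0.000603 and 0.0105). The siMk5 difference was not called without siNtc PA replicate 2 (-0.43) or 3 (-0.44), or without siMk5 PA replicate 2 (-0.37) or 3 (-0.41). Between siErk3 and siMk5, Ccl5 differed by 1.03 ± 0.10 (edgeR FDR = 4.45e-09), in the direction in which Il6 differed between the same libraries.

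Myotube and myoblast markers moved with the medium beside these results. With PA, 4 of 10 myotube markers were called lower and none higher (median log2 -0.29), Myog by 0.50 ± 0.03 and Mef2c by 0.55 ± 0.04, and 5 of 6 markers of myoblasts and cycling cells were called lower (median -0.91), Mki67 by 1.22 ± 0.04, beside 19.4% of all genes called lower. Their part in the falls of Fst and Fndc5 was not tested. With siErk3 against siNtc, 2 of 10 myotube markers were called in BSA, beside 0.785% of all genes. Both were higher: Myh8, the perinatal myosin (0.57 ± 0.05), and Myh3, the embryonic myosin (0.39 ± 0.05), with a list median of -0.01. In PA 1 was called, Myh8 (0.60 ± 0.06), beside 0.556% of all genes, with a list median of 0.05.

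The genes most like each member in log2 CPM over the 18 libraries, among 12734 genes with a mean of at least 1 CPM, are given as a description, since the libraries share 2 media that set most of these correlations. For Gdf15 they were Serp1 and Cpox (Pearson r = 0.998 for both), for Fgf21 Snhg15 and Por (0.99 for both), and for Il6 Taf15 (0.989) and Rrs1 (0.988). For Fst they were Myog (0.994) and Serinc5 (0.993), for Fndc5 Cand2 (0.976) and Rin3 (0.975), and for Metrnl Gtpbp6 (0.989) and Foxc2 (0.987). Within the 9 BSA and the 9 PA libraries the r of Fst with Myog was 0.68 and 0.97, and that of Gdf15 with Cpox 0.79 and 0.43. For Lif they were Tomm34 (0.929) and Gga3 (0.862), for Bdnf Mgp (0.945) and Ank (0.944), and for Il15, on few counts, H19 (0.784) and Fam241b (0.753). Within BSA and within PA, the r of Fst with Serinc5 was 0.25 and 0.71, and that of Il15 with Fam241b -0.44 and 0.85. No other pair had a negative r within a medium.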

How the data were processed

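The authors trimmed the reads with Trim Galore, aligned them with STAR and counted read pairs per gene with featureCounts 2.0.0, keeping primary, reversely stranded alignments of mapping quality 3 or more. The header of the deposited counts names GRCm39 with Ensembl 105, while the submitters' processing notes name mm10, and coordinates here follow the header. A second deposited table in log2 units holds the counts scaled by a constant for each library and raised by 1 before taking logs, and was used only for that check. Symbols came from GENCODE M39. No member shares exonic bases with another gene on its strand.

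Counts of genes that reached a sum of 10 over all libraries were fitted with edgeR 4.0.16 (TMM, quasi-likelihood, 1 coefficient per group, 18 libraries) in R 4.3.3. CPM carry no prior count, and log2 CPM for permutation and correlation a prior count of 2. DESeq2 1.42.0, other scalings and filters, the replicate block, 2-group fits and leaving out each of 18 libraries were alternatives. Scripts were tested on simulated data. No pair of libraries within a group agreed within sampling noise, and pairs across groups were not examined.

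All members were named. From each list at most 4 called genes with the smallest FDR and separate groups were named, plus the receptors, inhibitors and regulators of members described. The members and lists were chosen with earlier results of these data known.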

Additional observations from a re-analysis of the deposited data

How the results depend on the processing

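The direction of every called member and its call with PA were the same under DESeq2, DESeq2 size factors in edgeR, no filter on low counts, the replicate block, fits of the compared groups alone and removal of Rn18s-rs5. The exception was filterByExpr, under which Bdnf in siNtc fell to 0.38 and lost its call. Without the fold limit, Lif, Bdnf and Il15 also passed in the average. For siErk3 against siMk5 in PA the count of called members, 1, became 0 in the fit of those groups alone (Il6 at 0.55, edgeR FDR = 0.116), and ran from 0 to 1 when a library was left out. It also ran from 0 to 1 for siMk5 against siNtc in PA. Same-numbered libraries did not deviate together on average (mean r = -0.01 over 45 pairs, from -0.61 to 0.52). With 3 libraries per group and so wide a range, this cannot exclude that the numbers pair them. Under the replicate block 7 members were called in siNtc with PA and 6 in the average, and no call of a member changed.

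Counts over all genes moved by more than 1.5 times under the following settings. Without the fold limit the PA average went from 8121 to 12834 genes, and siErk3 against siNtc reached 263 in BSA (171 with the limit) and 186 in PA (121 with it). With no filter on low counts, siErk3 against siNtc in PA went to 208, siMk5 against siNtc in BSA from 14 to 61, siErk3 against siMk5 in BSA from 128 to 201, and the interactions from 8 to 72, 46 to 130 and 16 to 78. The siErk3 interaction count was 4 with DESeq2 size factors (2 higher of 4, against 2 of 8), 2 without Rn18s-rs5, 0 with filterByExpr and 4 in the fit of its groups. For siErk3 against siNtc in PA, the separate fit of the groups compared gave 71. Leaving out a library moved the count of siErk3 against siNtc in BSA from 171 to between 113 (without siNtc BSA replicate 2) and 195, and that of siMk5 against siNtc in BSA from 14 to between 6 and 26. The interaction counts of 8, 46 and 16 then ran from 0 to 24, 22 to 68 and 10 to 33. The cause was not tested. Depth limited Il6 and Gdf15 in BSA, Il15 and Mstn.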

Other observations

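Ostn, which encodes the muscle-secreted peptide musclin, was chosen after its values were seen. It had 2 counts over the 9 BSA libraries and 35 to 65 counts in each PA library, a ratio of 232 with a 95% exact interval of 63.8 to 1920 that covers counting error only. Its PA level was 2.13 ± 0.508 CPM in siNtc, 2.35 ± 0.193 in siErk3 and 2.59 ± 0.290 in siMk5 (SD, n = 3). Tnf, the inflammatory cytokine, had 2 counts over the 9 BSA libraries and 76 over the 9 PA libraries, and was likewise chosen after its values were seen.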
